A study of Homo sapiens with 7 samples.

Results

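HSP70 and HSP110 chaperone genes were followed in HEK-293 cells kept in acidified medium or given the kinase inhibitor SRPIN340. The family was taken by name as 9 rows of a deposited table of 19978 genes. Members and gene lists were chosen with earlier results of these data known. The shares of all genes set beside their counts are therefore a description and not a test. All 9 passed the expression filter, which left 14863 genes for testing. HSPA1A, HSPA1B and HSPH1 were treated as the inducible members, and HSPA8, HSPA2, HSPA14, HSPA13, HSPA9 and HSPA4 as the 6 constitutive members. The endoplasmic reticulum chaperone HSPA5 was not a member and is given only beside the others.

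HSP70 proteins bind short hydrophobic stretches of unfolded proteins in an ATP-driven cycle. J-domain proteins deliver the client and start ATP hydrolysis, and nucleotide exchange factors, among them the HSP110 proteins HSPH1 and HSPA4, release ADP so that the client can leave. In unstressed cells the cytosol is served mainly by HSPA8, whereas HSPA1A and HSPA1B are best known as the targets of the transcription factor HSF1 under heat and other stresses that unfold proteins. HSF1 binds the heat shock element, an array of inverted nGAAn units.

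RNA of HEK-293, an established human embryonic kidney cell line, was sequenced after 48 h in DMEM with DMSO as the vehicle in every group. The control (n = 2) was kept at pH 7.4, the SRPIN340 group (n = 2) at pH 7.4 with 10 µM of this inhibitor of the kinases that phosphorylate SR splicing factors, and the acidosis group (n = 3) at pH 6.6. The sample titles and the paper name the inhibitor SRPIN340, whereas the deposited treatment protocol writes SRPIN 350. Each library was a biological repeat of the same line, and no group without DMSO was used here. Poly(A)-selected RNA was sequenced, and the submitters deposited estimated counts per gene with library totals between 13615816 and 24110460 counts, lowest in 2 of the 3 acidosis libraries.

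Levels are given as CPM, the library-size-corrected count of a gene with library sizes scaled by the trimmed mean of M values (TMM). A gene passed at an adjusted p under 0.05 in the quasi-likelihood test of edgeR, adjusted by Benjamini-Hochberg over all genes tested, and was called where its absolute log2 fold change also exceeded 1. Scaling bears on every value in acidosis, because over all genes the median log2 fold change was -0.052 with TMM and -0.626 with library totals only. Changes are therefore relative to the typical gene. In bulk RNA, fewer cells of a type and less RNA per cell cannot be told apart. Of 6 markers of the line, CDH2, VIM, NEFL and NEFM averaged between 22.8 and 867 CPM in control, PAX2 was at 6.78 ± 0.4 CPM (SD of 2 libraries) and PAX8 was near 0 at 0.0891 ± 0.0268 CPM (SD of 2 libraries). In acidosis the 5 tested markers of the line all passed, 4 as higher and PAX2 as lower, with log2 fold changes of 1.65 for VIM, 1.65 for NEFM, 0.66 for NEFL, 0.23 for CDH2 and -1.93 for PAX2, and their part in the chaperone results was not tested. Markers of other cell types, PTPRC, PECAM1 and ALB, were below 1 CPM on average in each group. Even so, PTPRC was called higher in acidosis, with a log2 fold change of 2.12 (adjusted p = 0.0473 in edgeR). COL1A1 moved from 30.8 ± 0.0359 CPM (SD of 2 libraries) to 62.3 ± 4.08 CPM (SD of 3 libraries) in acidosis. The part of PTPRC and COL1A1 in the chaperone results was not tested either.

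Promoter windows of HSPA1A and HSPA1B, the most changed members, are shown with those of HSPA8 and HSPA6, which were chosen because they held 3-unit heat shock elements. Windows of members without a match are not printed, and neither is that of HSPA9, which held a 2-unit match. Windows of 300 bases, from 250 before to 50 after the start site, came from RefSeq on GRCh38.p14, and 8 of the 9 members matched (HSPA14 did not). Both strands were searched for 2 neighbouring units, GAANNTTC or TTCNNGAA, and for 3 units, which are GAANNTTC followed directly by NNGAA or TTCNNGAA followed directly by NNTTC and so contain the 2-unit forms. Among 35116 promoters, 13.5% held a 2-unit match and 0.49% a 3-unit match. Capitals mark the matches, and each window reads 5′ to 3′ on the strand of its gene. HSPA1A (chr6:31815293-31815592, plus strand), HSPA1B (chr6:31827488-31827787, plus strand), HSPA8 (chr11:123062087-123062386, minus strand) and the non-member HSPA6 (chr1:161524290-161524589, plus strand) read as follows.
HSPA1A: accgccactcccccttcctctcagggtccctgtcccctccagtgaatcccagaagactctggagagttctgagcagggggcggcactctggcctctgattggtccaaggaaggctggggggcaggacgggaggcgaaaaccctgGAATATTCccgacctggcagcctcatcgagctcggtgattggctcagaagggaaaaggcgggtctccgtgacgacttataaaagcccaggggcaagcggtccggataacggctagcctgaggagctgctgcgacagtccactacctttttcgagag
HSPA1B: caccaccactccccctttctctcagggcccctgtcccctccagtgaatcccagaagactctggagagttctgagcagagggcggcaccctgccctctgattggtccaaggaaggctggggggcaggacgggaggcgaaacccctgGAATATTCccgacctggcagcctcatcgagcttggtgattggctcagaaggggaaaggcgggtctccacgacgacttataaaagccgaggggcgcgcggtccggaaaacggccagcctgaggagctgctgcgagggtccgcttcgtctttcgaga
HSPA8: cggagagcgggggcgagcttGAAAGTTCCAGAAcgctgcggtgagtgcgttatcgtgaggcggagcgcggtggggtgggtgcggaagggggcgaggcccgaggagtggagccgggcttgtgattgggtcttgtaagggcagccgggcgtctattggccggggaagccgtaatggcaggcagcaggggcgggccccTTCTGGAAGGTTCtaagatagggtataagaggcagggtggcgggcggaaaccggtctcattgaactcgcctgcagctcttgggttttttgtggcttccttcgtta
HSPA6: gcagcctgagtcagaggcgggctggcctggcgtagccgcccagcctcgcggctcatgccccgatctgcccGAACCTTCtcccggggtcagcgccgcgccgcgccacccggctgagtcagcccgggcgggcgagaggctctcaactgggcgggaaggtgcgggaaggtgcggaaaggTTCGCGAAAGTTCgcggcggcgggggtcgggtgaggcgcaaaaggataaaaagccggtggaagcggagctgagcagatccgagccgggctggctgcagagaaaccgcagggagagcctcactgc

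The windows of HSPA1A and HSPA1B were near copies, with 22 mismatches and 2 gap columns over 301 aligned columns, and both carried GAATATTC, starting at -106 and -105 from the start site. No 3-unit match lay in either window. The search took exact units only, so here and in the other windows elements with imperfect units were not counted. HSPA8 held 2 separate 3-unit matches, GAAAGTTCCAGAA starting at -230 and TTCTGGAAGGTTC at -55. HSPA6, the family's most strictly stress-induced gene, held TTCGCGAAAGTTC at -74. In HSPA9 a 2-unit match, TTCCAGAA, lay at -4. These letters were not found in the windows of HSPH1, HSPA13, HSPA2 or HSPA4, so the 5 members that are called in acidosis in the results that follow comprised 3 with a 2-unit match and 2 without. A match is a description of sequence and not of binding.

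HSPA1A and HSPA1B encode practically the same cytosolic HSP70 from neighbouring single-exon genes in the major histocompatibility complex. HSPA1A (ENSG00000204389.10) lies at chr6:31815543-31817946 and HSPA1B (ENSG00000204388.7) at chr6:31827738-31830254, both on the plus strand of GRCh38. Their transcripts were 90.7% identical, and 76.9% of the 31-base words of the HSPA1A transcript also occurred in HSPA1B. The split of reads between them is therefore an estimate, and the sum of both was tested as well.

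HSPA1A stood at 244 and 229 CPM in the control libraries, 219 and 181 CPM with SRPIN340, and 10779, 10719 and 11619.6 CPM in acidosis. HSPA1B stood at 357 and 333 CPM in control, 304 and 262 CPM with SRPIN340, and 8983, 8381 and 9483 CPM in acidosis. Every acidosis library was far above every other library for both genes, and both SRPIN340 libraries were below both controls. HSPA1A rose 46.7-fold in acidosis, a log2 fold change of 5.54 (SE 0.102, adjusted p = 5.14e-10 in the edgeR test). HSPA1B rose 25.9-fold, with a log2 fold change of 4.7 (SE 0.0935, adjusted p = 8.79e-10 in the same edgeR test). Their log2 fold changes ranked 47 and 79 among the 14863 genes. By CPM, HSPA1A ranked 3 and HSPA1B 4 among all genes in each of the 3 acidosis libraries, whereas in control their ranks were 525 and 558 for HSPA1A and 313 and 334 for HSPA1B.

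Summed, the pair went from 582 ± 27.8 CPM (SD of 2 libraries) in control to 19988 ± 1020.3 CPM (SD of 3 libraries) in acidosis, a 34.4-fold rise. The log2 fold change of the sum was 5.1 (SE 0.0936, adjusted p = 5.09e-10 in the edgeR test). Of all counts in a library, the pair took 0.0704% and 0.0664% in control, 0.0632% and 0.0535% with SRPIN340, and 1.56%, 1.53% and 1.65% in acidosis. HSPA1A gave 40.6% and 40.8% of the pair's counts in control, 41.9% and 40.8% with SRPIN340, and 54.5%, 56.1% and 55.1% in acidosis. Thus HSPA1B was the more abundant of the pair in each library at pH 7.4 and HSPA1A in each library at pH 6.6, with the limit that this share depends on how shared reads were divided.

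**Figure D1:**
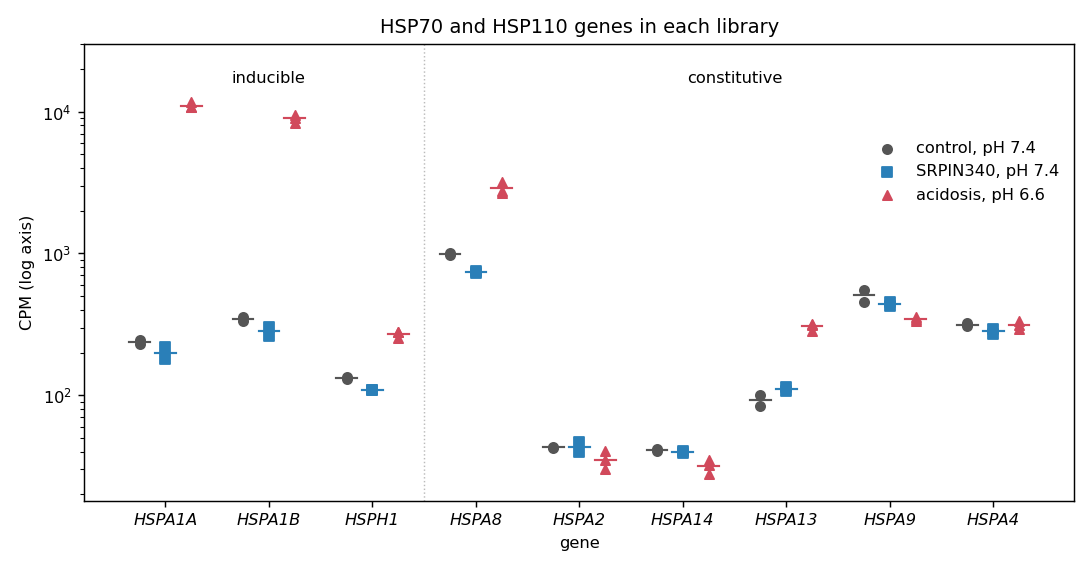
CPM (log axis) of the 9 genes in each of the 7 libraries: control (circles), SRPIN340 (squares) and acidosis (triangles), with a bar at the mean. HSPA1A and HSPA1B lie at 8381 CPM or more in acidosis and at 357 CPM or less in each of the other libraries, and HSPA4 overlaps between acidosis and control.

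HSPH1 encodes HSP105, an HSP110 protein that acts as a nucleotide exchange factor and whose gene HSF1 also targets. Its CPM were 134 and 131 in control, 108 and 109 with SRPIN340, and 281, 254 and 280.5 in acidosis. All acidosis libraries were above the controls, and both SRPIN340 libraries were below them. HSPH1 (ENSG00000120694.20, chr13:31134973-31162388, minus strand, 18 exons) rose 2.06-fold in acidosis, with a log2 fold change of 1.04 (SE 0.0714, adjusted p = 1.13e-06 in edgeR's quasi-likelihood test). This gene lies just past the call limit of 1, and with library totals only its log2 fold change was 0.46.

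HSPA8, the main cytosolic HSP70 of unstressed cells, stood at 1011 and 969 CPM in control, 752 and 729 CPM with SRPIN340, and 2765, 2678 and 3171 CPM in acidosis. The 3 groups did not overlap: SRPIN340 was lowest, control between, acidosis highest. HSPA8 (ENSG00000109971.14, chr11:123057489-123063230, minus strand, 9 exons) rose 2.9-fold in acidosis, with a log2 fold change of 1.54 (SE 0.0772, adjusted p = 1.66e-07 in edgeR's quasi-likelihood test). With library totals only the log2 fold change was 0.96. Of its transcript's 31-base words, 44.7% also occur in other genes and 0% in other protein-coding genes. The copies are pseudogenes such as HSPA8P1, and how reads shared with them were assigned is not given in the sources used here.

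HSPA13 encodes a short HSP70 of the microsomal fraction, without the usual client-binding domain. It went from 100.2 and 84.3 CPM in control, and 107 and 115 CPM with SRPIN340, to 283, 314 and 320 CPM in acidosis. Again all acidosis libraries were highest, and here the SRPIN340 libraries were above the controls. HSPA13 (ENSG00000155304.6, chr21:14371115-14383484, minus strand) rose 3.32-fold in acidosis, with a log2 fold change of 1.73 (SE 0.0962, adjusted p = 3.01e-07 in edgeR's quasi-likelihood test). None of its 31-base words occurs in another gene (0%).

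Mitochondrial HSPA9 (mortalin), the motor of protein import into the matrix, moved the other way. Its CPM were 553 and 457 in control, 452 and 425 with SRPIN340, and 332, 358 and 346 in acidosis. All acidosis libraries lay below all others, although the controls were themselves spread. HSPA9 (ENSG00000113013.16, chr5:138553756-138575675, minus strand, 17 exons) fell by 0.55 on the log2 scale (SE 0.0829, adjusted p = 2.45e-04 in edgeR's quasi-likelihood test). With library totals only its log2 fold change was -1.12.

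HSPA14, which works at the ribosome with the J-domain protein DNAJC2, had 41.7 and 40.2 CPM in control, 39.4 and 40.5 CPM with SRPIN340, and 32.4, 34.8 and 27.8 CPM in acidosis. Acidosis libraries were lowest, and control and SRPIN340 overlapped. The gene (chr10:14838306-14871741, plus strand) fell by 0.37 on the log2 scale in acidosis (SE 0.113, adjusted p = 0.015 in the edgeR test). It no longer passed without control replicate 1, where the log2 fold change was -0.35 and the adjusted p 0.0747. HSPA14 shares 16.7% of its 31-base words with the overlapping gene MSANTD7, and CDNF overlaps it on the other strand.

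HSPA2, a constitutive cytosolic HSP70 best known from the testis, had 42.7 and 43.2 CPM in control, 39.5 and 46.5 CPM with SRPIN340, and 40.6, 30 and 34.7 CPM in acidosis. Each acidosis library was below both controls, yet the gene did not pass, with a log2 fold change of -0.29 and a 95% confidence interval from -0.59 to 0.01 (adjusted p = 0.0841 in the edgeR test). It passed without acidosis replicate 1, with a log2 fold change of -0.41 and an adjusted p of 0.0196. HSPA2 also passed as lower with library totals only (log2 fold change -0.86) and with a mean of at least 6 CPM (-0.34). An antisense gene, HSPA2-AS1, overlaps it, and the strand setting of the quantification is not given in the sources used here.

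HSPA4, the constitutive HSP110 protein and counterpart of HSPH1, had 306 and 324 CPM in control, 268 and 295 CPM with SRPIN340, and 292, 312 and 333 CPM in acidosis. Acidosis and control overlapped. The log2 fold change was -0.01, with a 95% confidence interval from -0.18 to 0.16 (adjusted p = 0.889 in the edgeR test). With library totals only, HSPA4 passed as lower, with a log2 fold change of -0.59. The log2 ratio of HSPH1 to HSPA4, which needs no scaling, was -1.2 and -1.31 in control, -1.31 and -1.44 with SRPIN340, and -0.05, -0.3 and -0.25 in acidosis.

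Across the family, 5 of the 9 genes were called higher in acidosis (HSPA1A, HSPA1B, HSPH1, HSPA8 and HSPA13), against 14.4% of all genes tested, and 0 were called lower by edgeR or by DESeq2, against 19.1%. At an unadjusted p under 0.05 in edgeR, 2 members were lower, the same genes that passed. These were HSPA9 and HSPA14, which passed as lower with changes under the call limit, against 34.2% of all genes. Every acidosis library was above every control library in those 5 genes, against 37.0% of all genes, and below in 3 (HSPA2, HSPA14 and HSPA9), against 39.4%. The median log2 fold change of the 9 genes was 1.04, beside -0.052 for all genes. With library totals only, 3 were called higher (HSPA1A, HSPA1B and HSPA13), HSPA9 was called lower and 4 passed as lower. The labels inducible and constitutive did not order the changes, since the inducible HSPH1 had a smaller log2 fold change than the constitutive HSPA8 and HSPA13, a comparison that was not tested.

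**Figure D2:**
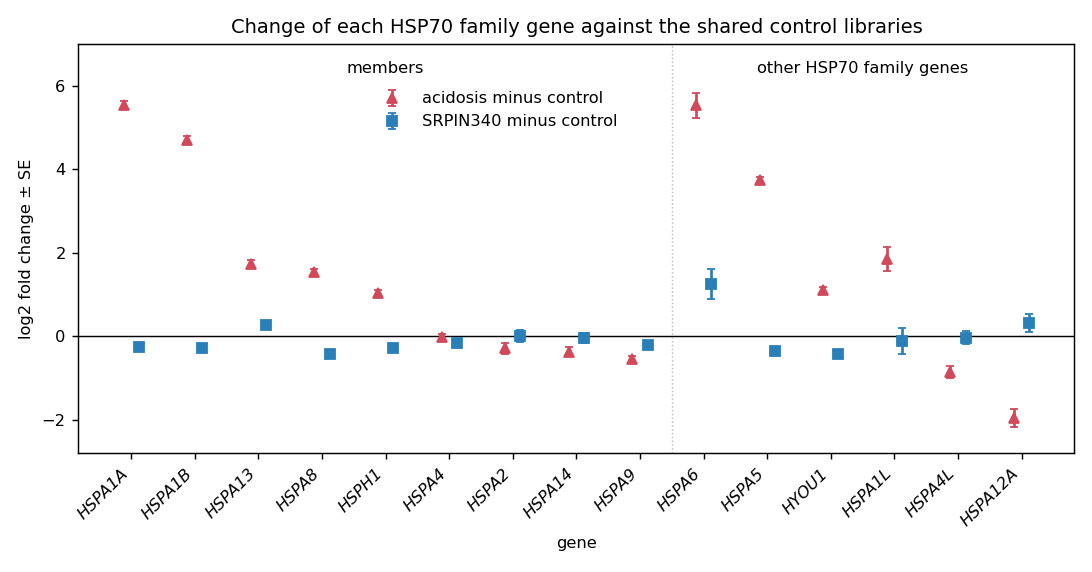
Log2 fold change ± SE against control in acidosis (triangles) and with SRPIN340 (squares) for the 9 members and, right of the dotted line, 6 other HSP70 family genes. HSPA1A (5.54) and HSPA6 (5.53) are highest in acidosis, and the SRPIN340 values of the 9 members lie between -0.42 and 0.27. Both comparisons share the 2 control libraries.

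Ratios within a library describe the inducible against the constitutive genes without any scaling. The summed CPM of HSPA1A and HSPA1B were below those of HSPA8 in control, with log2 ratios of -0.75 and -0.79, and above them in acidosis, with 2.84, 2.83 and 2.73. Relative to HSPA8 the pair thus gained 3.57 on the log2 scale, or 11.9-fold. The gain was 5.64 relative to HSPA9, 5.12 relative to HSPA4, 4.07 relative to HSPH1 and 3.37 relative to HSPA13. Relative to HSPA2 and HSPA14 it was 5.41 and 5.48. In each of these ratios every acidosis library exceeded every control library. All of them share 1 numerator, which itself rose 34.4-fold, so they are not separate results. Genes outside the family were not used as denominators. With SRPIN340 the ratio to HSPA8 was -0.53 and -0.72, above both controls. Those to HSPA13 (2.28 and 1.95) and HSPA14 (3.73 and 3.45) were below both controls, while the ratios to HSPH1, HSPA2, HSPA9 and HSPA4 overlapped with control. Such separation is common between groups of 2 libraries: by CPM, 26.8% of all genes had both SRPIN340 libraries below both controls. These ratios were not tested or compared with ratios of other genes.

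**Figure D3:**
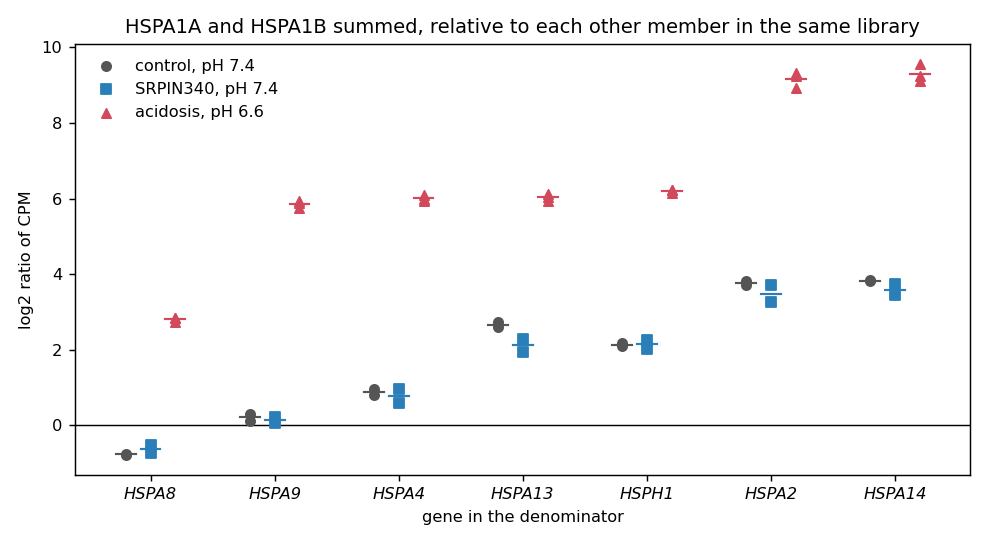
Log2 ratio of the summed CPM of HSPA1A and HSPA1B to the CPM of each other member, in the same library, with a bar at the group mean. The acidosis libraries (triangles) lie above the control libraries (circles) for all 7 denominators, by 3.37 for HSPA13 to 5.64 for HSPA9. All 7 ratios share the same numerator.

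Per length (CPM per kb of the reference transcript), HSPA8 was highest in control at 437 ± 13.2 (SD of 2 libraries), followed by HSPA1B at 137 ± 6.92, HSPA9 at 115 ± 15.4, HSPA1A at 98.6 ± 4.33 and HSPA4 at 66 ± 2.54. HSPH1, HSPA13 and HSPA14 came next and overlapped with their neighbours, and HSPA2 was lowest at 17.2 ± 0.149. In acidosis HSPA1A led at 4599.7 ± 209.8 CPM per kb (SD of 3 libraries), before HSPA1B at 3555 ± 219 and HSPA8 at 1268 ± 116. HSPA9 (78.5 ± 2.98) and HSPA13 (77.5 ± 5.04) overlapped there, as did HSPA14 (18 ± 2.03) and HSPA2 (14 ± 2.12), which were lowest.

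Taken as one pool of transcripts, the 9 genes summed to 972 and 914 CPM per kb in control, 789 and 751 with SRPIN340, and 9578, 9285 and 10322 in acidosis. HSPA1A and HSPA1B made up 25.1% and 24.9% of this pool in control, 26.8% and 23.9% with SRPIN340, and 84.2%, 84.0% and 83.4% in acidosis. HSPA8 made up 46.0% and 46.8% in control, 42.1% and 42.9% with SRPIN340, and 12.7%, 12.7% and 13.6% in acidosis, although its own CPM rose. The share of HSPA9 went from 12.2 ± 1.06% (SD of 2 libraries) to 0.808 ± 0.0603% (SD of 3 libraries). These shares are a description, with no test.

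**Figure D4:**
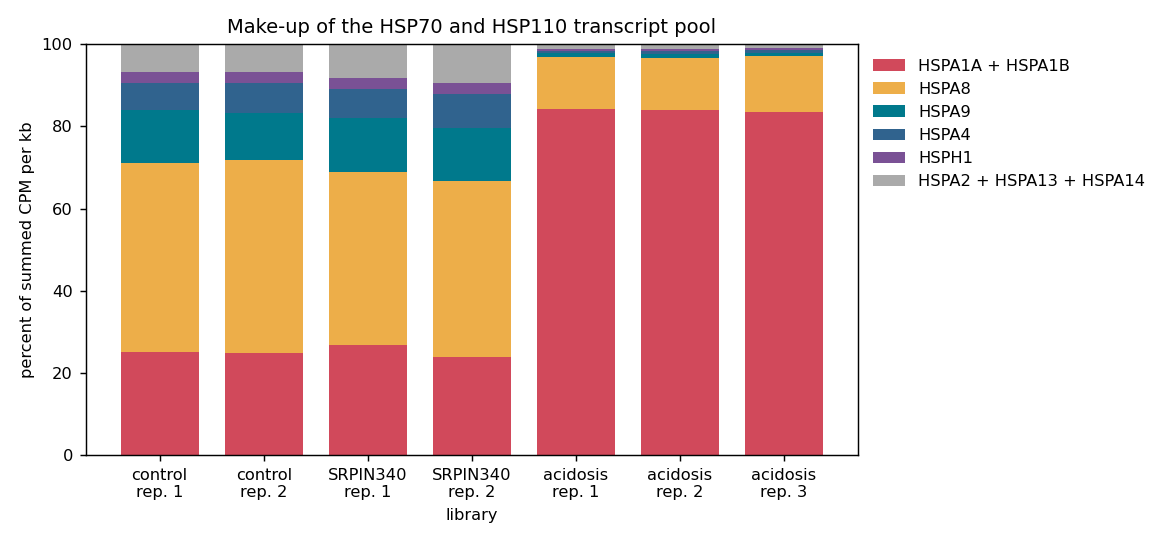
Make-up of the summed CPM per kb of the 9 genes in each library, as stacked percentages that start at 0. HSPA1A and HSPA1B together take between 23.9% and 26.8% in the 4 libraries at pH 7.4 and between 83.4% and 84.2% in the 3 libraries at pH 6.6.

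SRPIN340 was compared with the same 2 control libraries, so its values share their errors. Of the 9 genes, 0 were called in either direction by edgeR or DESeq2, against 0.323% of all genes tested with edgeR. At an unadjusted p under 0.05 in edgeR, 4 were lower and 1 was higher, with no change over the fold limit. No share of all genes is given for these unadjusted counts. HSPA8 alone passed, as lower, against 1.53% of all genes. It fell by 0.42 on the log2 scale, or 1.34-fold (SE 0.0804, adjusted p = 0.0354 in edgeR's quasi-likelihood test). HSPA8 no longer passed without any one of control replicate 1 (adjusted p = 0.152), control replicate 2 (0.12), SRPIN340 replicate 1 (0.21), SRPIN340 replicate 2 (0.276) or acidosis replicate 1 (0.0551). Its log2 fold change stayed between -0.45 and -0.39 with any replicate left out. Both SRPIN340 libraries were below both controls in 6 genes (HSPA1A, HSPA1B, HSPH1, HSPA8, HSPA9 and HSPA4), against 26.8% of all genes.

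The summed pair of HSPA1A and HSPA1B had 482 ± 56.4 CPM (SD of 2 libraries) with SRPIN340, a log2 fold change of -0.27 with a 95% confidence interval from -0.45 to -0.09 (adjusted p = 0.126 in the edgeR test). HSPH1 had a log2 fold change of -0.29 (interval -0.46 to -0.11, adjusted p = 0.0895 in edgeR). DESeq2 passed HSPA1B and HSPH1 as lower as well, at adjusted p of 0.029 and 0.0169. HSPA13 had a log2 fold change of 0.27 (interval 0.04 to 0.49, adjusted p = 0.207 in edgeR).

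Acidosis was then tested directly against SRPIN340. The same 5 genes were called higher, against 14.9% of all genes, and HSPA9 and HSPA14 passed as lower, against 35.0%. The log2 fold change of the summed pair was 5.37 (SE 0.095, adjusted p = 4.79e-10 in edgeR's quasi-likelihood test), that of HSPA8 1.95 (SE 0.0788, adjusted p = 4.57e-08 in edgeR) and that of HSPA13 1.46 (SE 0.095, adjusted p = 7.75e-07 in edgeR).

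The rest of the HSP70 family was read from a list of 7 genes, of which 6 were tested. In acidosis 4 were called higher, against 14.4% of all genes, and 1 lower, against 19.1%, and 2 passed as lower in all, against 34.2%. HSPA6 had 0.396 and 0.351 CPM in control, 0.958 and 0.835 CPM with SRPIN340, and 18.5, 13.5 and 20.4 CPM in acidosis. It rested on 11.3 and 10.2 counts in the control libraries and on 147.2 to 310.9 counts in acidosis, and 57% of its 31-base words also occur in the pseudogene HSPA7. Its log2 fold change in acidosis was 5.53 (SE 0.302, adjusted p = 2.72e-07 in the edgeR test). With SRPIN340 it was 1.25, with both libraries above both controls (adjusted p = 0.115 in edgeR).

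HSPA5 (BiP), the HSP70 of the endoplasmic reticulum lumen, rose from 451 ± 17.4 CPM (SD of 2 libraries) to 6059 ± 109.7 CPM (SD of 3 libraries) in acidosis, a log2 fold change of 3.75 (SE 0.0624, adjusted p = 3.05e-10 in edgeR). With SRPIN340 it was 353 ± 17.9 CPM (SD of 2 libraries), and it passed as lower (log2 fold change -0.35, adjusted p = 0.0227 in edgeR). HYOU1, the HSP110 relative in the same compartment, had log2 fold changes of 1.11 in acidosis and -0.43 with SRPIN340, and passed in both. HSPA1L, which shares its upstream region with HSPA1A (the same GAATATTC lies in both windows), had 2.46 ± 0.95 CPM (SD of 2 libraries) in control and 8.85 ± 0.987 CPM (SD of 3 libraries) in acidosis, and 4.03% of its 31-base words occur in HSPA1A. HSPA4L, an HSP110 gene, and HSPA12A, a distant relative, fell by 0.85 and 1.96 on the log2 scale.

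Genes that work with HSP70 were read from 7 lists holding 55 genes, 53 of them tested, with the HSP70 relatives above as the first list. In acidosis 35 of the 53 passed as higher, 8 passed as lower and 10 did not pass, where 32.5% of all genes tested passed as higher and 34.2% as lower. Of the 53, 20 were called higher and 2 lower, against 14.4% and 19.1% of all genes. These shares are the ones to set beside the counts of each list. The median log2 fold change was 0.82, beside -0.052 for all genes. With SRPIN340, 4 passed as lower (HSPA5, HYOU1, DNAJA1 and STIP1) and 0 as higher in edgeR, where 17 were lower and 2 higher at an unadjusted p under 0.05, and the median was -0.12, beside 0.002 for all genes. Of all genes 1.53% passed as lower and 0.767% as higher in edgeR. These shares are for adjusted p, and no share of all genes is given for the counts at an unadjusted p. DESeq2 passed 9 of the 53 as lower and 0 as higher, where it passed 563 of all genes as lower and 319 as higher, more than edgeR did.

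Among 10 tested J-domain partners, 8 passed as higher, 0 as lower and 2 did not pass. DNAJB5, a cytosolic member, led with a log2 fold change of 3.51. DNAJB1 (HSP40), which pairs with HSPA1A and HSPA8, rose 5.82-fold, from 114 ± 4.26 CPM (SD of 2 libraries) to 661 ± 76.3 CPM (SD of 3 libraries), with an adjusted p of 3.89e-08 in the edgeR test. DNAJB4 had a log2 fold change of 1.13. DNAJA1, another cytosolic partner, overlapped with control, with a log2 fold change of -0.04.

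Of 9 nucleotide exchange factors, 6 passed as higher, 1 (HSPBP1) as lower and 2 did not pass. GRPEL2, a mitochondrial exchange factor for HSPA9, had a log2 fold change of 1.91, BAG3 1.08 and BAG1 1.05. BAG3, which directs HSP70 clients to selective autophagy, rose from 46 ± 0.341 CPM (SD of 2 libraries) to 96.9 ± 6.22 CPM (SD of 3 libraries). Of 6 handover factors, which pass clients to HSP90 or to ubiquitination, 4 passed as higher and 1 as lower in edgeR, and 0 were called by edgeR or DESeq2, also at an unadjusted p. HSP90AB1 and HSP90AA1 rose by 0.92 and 0.89 on the log2 scale and DNAJC7 fell by 0.79.

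The 3 heat shock factor genes HSF1, HSF2 and HSF4 and HSBP1, which encodes a protein that binds HSF1, were all called higher in acidosis, against 14.4% of all genes. HSF1, the main regulator, rose from 36.5 ± 3.33 CPM (SD of 2 libraries) to 89.3 ± 17.3 CPM (SD of 3 libraries), a log2 fold change of 1.3 (SE 0.152, adjusted p = 4.27e-05 in edgeR's quasi-likelihood test). HSF2 and HSBP1 had log2 fold changes of 1.51 and 1.75. HSF4 was low, with 1.73 and 1.79 CPM in control and 5.05, 1.93 and 5.85 CPM in acidosis (adjusted p = 0.0272 in edgeR), so that 1 acidosis library lay close to the controls. HSF1 is controlled mainly through its protein, which was not measured.

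Most partners of HSPA9 in mitochondria passed in the other direction than HSPA9 itself. Of 9, 6 passed as higher, 1 (the iron-sulfur cluster co-chaperone HSCB) as lower and 2 did not pass. The import subunit TIMM44 had a log2 fold change of 0.99 (SE 0.11) and DNLZ, which keeps HSPA9 soluble, 1.01 (SE 0.346). DNLZ was low, with 2.74 and 3.48 CPM in control and 5.4, 5.05 and 8.34 CPM in acidosis (adjusted p = 0.0267 in edgeR).

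Other known HSF1 targets were mixed. Of 19, 11 passed as higher, 3 as lower and 5 did not pass, and 7 were called higher and 1 lower. The small heat shock protein gene CRYAB had 1.9 counts in each control library, 10.9 and 4.1 with SRPIN340, and 151.7, 108.9 and 100.5 in acidosis. CRYAB cleared the expression filter only through its acidosis libraries, so its place among the genes called higher is no separate evidence. The mitochondrial chaperonin genes HSPD1 and HSPE1 had log2 fold changes of 0.08 and 0.1, the HSP90 co-chaperones AHSA1 and CHORDC1 had -0.05 and -0.21, and none of these 4 passed. SERPINH1 (HSP47, a collagen chaperone), CACYBP and ZFAND2A passed as lower, with -1.25, -0.76 and -0.69. A 3-unit match lay in the promoter windows of CHORDC1, DNAJA1, HSP90AA1, HSP90AB1, HSPD1 and SERPINH1. That is 6 of the 17 HSF1 targets with a window, in a list chosen as HSF1 targets, against 0.49% of all promoters. These 6 genes had log2 fold changes from -1.25 to 0.92. The other listed genes with a 3-unit match were HSPA8, HSPA6 and DNAJB6, with 1.54, 5.53 and 0.72.

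**Figure D5:**
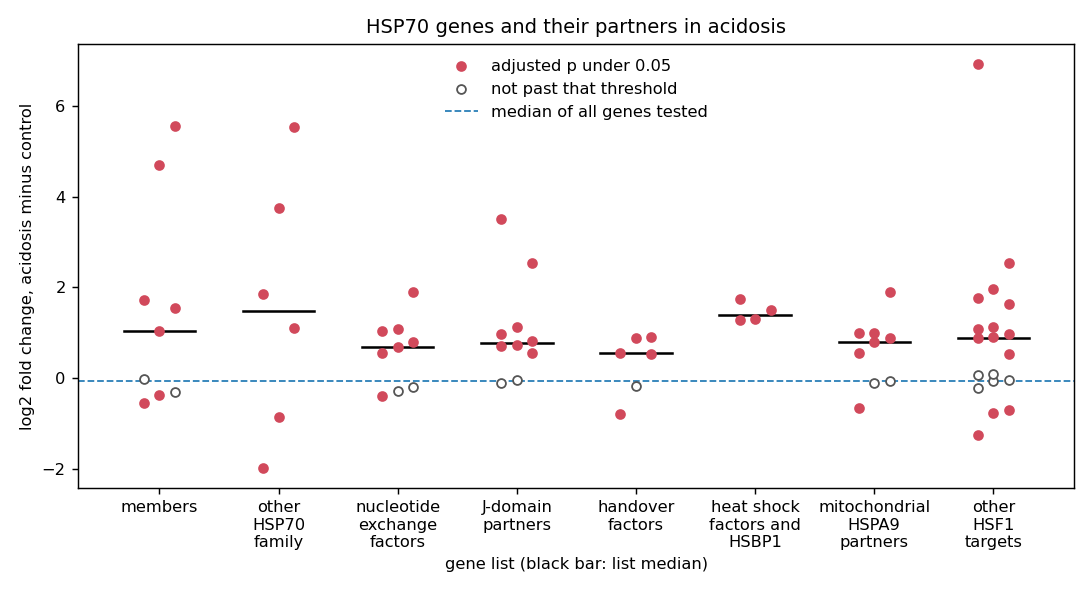
Log2 fold change in acidosis of each tested gene in the 9 members and the 7 partner lists; filled points passed at an adjusted p under 0.05, open points did not, black bars are list medians and the dashed line is the median of all genes tested (-0.052). HSF1, HSF2, HSF4 and HSBP1 lie above 1, and some genes stand in more than 1 list.

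Genes whose pattern over the 7 libraries was nearest to the summed pair, by root mean square difference of log2 CPM centred on the control mean among 10117 genes averaging 10 CPM or more, were KLF6 (0.157), H2BC8 (0.223), JUN (0.324), GPR3 (0.327) and TCIM (0.355). KLF6 and JUN encode transcription factors of the early response to stimuli. KLF6 had 49.9 CPM in control, 49.4 CPM with SRPIN340 and 1842 CPM in acidosis on average, and JUN had 146, 176 and 5880.0 CPM. H2BC8, GPR3 and TCIM averaged 0.768, 0.356 and 0.322 CPM in control and 35.8, 27.7 and 27.0 CPM in acidosis, so they reached the 10 CPM mean only through acidosis. The nearness of these low genes depends on the 0.5 CPM added before the logarithm. For HSPA8, the nearest of 10118 genes were IDI1 (0.0648), an enzyme of isoprenoid synthesis, LAMP1 (0.0715), MYL6 (0.0795), LIN52 (0.0805) and CFL1 (0.0849). IDI1 had 205 CPM in control, 153 CPM with SRPIN340 and 595 CPM in acidosis. None of the 10 nearest genes is in the chaperone lists.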

How the data were processed

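Sequencing reads of poly(A) RNA from 7 HEK-293 libraries were trimmed (Trimmomatic 0.39 and Trim Galore 0.6.6), and Salmon 1.5.1 with Gencode transcripts of GRCh38.p13 gave transcript abundances, which tximport brought to gene level, per the paper's methods and the submitters' processing notes. The deposited estimated counts were not normalized between libraries by the authors. The tximport option and strand setting are not given in the sources used here. Per the methods each biological repeat was itself replicated, but the table has 1 column per sample, so p-values measure only the spread between these samples. Depth limits the precision of low genes most in acidosis replicates 2 and 3.

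Here these estimated counts, rounded to integers, were fitted with edgeR 4.0.16 (R 4.3.3; TMM, filterByExpr, quasi-likelihood test, all 7 samples in 1 fit). Adjusted p-values (Benjamini-Hochberg) cover all 14863 genes, and the SE comes from the test statistic. Columns were matched to samples by the column names in the labels. Symbols, transcript lengths and shared 31-base words came from GENCODE release 44, with 19977 of 19978 genes matched. Alternatives were DESeq2 1.42.0, RLE scaling, library totals only, no filter, a mean of at least 6 CPM, only the 2 groups compared, a replicate block, and each replicate left out. Likeness used log2(CPM + 0.5). The members and gene lists were chosen with earlier results of these data known. Named were the 9 members, HSPA6, HSPA5, BAG3, DNAJB1 and HSF1, the 3 largest passing changes per list in acidosis, and the 5 genes nearest in pattern to HSPA1A and HSPA1B summed and to HSPA8. A gene that this rule names is not reported here. Other partner genes (HSF4, DNAJA1, DNAJB6, STIP1, HSPBP1, HSCB, the remaining HSP70 relatives and the HSF1 targets that fell or did not pass) were chosen after their values were seen. Splicing was not analysed here.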

Additional observations from a re-analysis of the deposited data

How the results depend on the processing

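In acidosis, HSPA1A, HSPA1B, HSPH1, HSPA8, HSPA13 and HSPA9 kept their direction and passed under every alternative, and the 5 higher calls numbered 4 with a mean of at least 6 CPM, where HSPH1 fell under the fold limit, and fewer with library totals. With library totals only, 3 members were called higher and 1 lower and 4 passed as lower, 11 partner genes were called higher and 7 lower, and 815 of all genes were called higher and 5202 lower, in place of 2145 and 2840. Against SRPIN340, the same scaling gave 3 members called higher and 4 passed as lower, and turned HSPA4 to -0.47. With SRPIN340 against control it turned HSPA14 to 0.00421. HSPA4 in acidosis turned to 0.01 with DESeq2 and RLE scaling, and HSPA2 with SRPIN340 to -0.00352 and -0.00354. These reversals are changes near 0, apart from HSPA4 against SRPIN340.

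The replicate block left 1 member passing as lower in acidosis against control, 1 against SRPIN340 and 0 for SRPIN340 against control, where HSPA8 had an adjusted p of 0.0553 in edgeR. HSPA14 in acidosis had 0.0715 in edgeR under the block. Correlations of deviations between same-numbered libraries were -0.0238 for control and SRPIN340, -0.0861 and -0.146 for control and acidosis, and 0.0715 and 0.0444 for SRPIN340 and acidosis. They were weak and of both signs. In a group of 2 libraries the deviations mirror each other, so this check cannot decide whether equal numbers mark paired samples. For all genes with SRPIN340, the block gave 5 called higher, 13 passed higher and 38 passed lower, in place of 19, 114 and 228. DESeq2 gave 319 passed higher and 563 lower, and only the 2 groups 33 called higher, 236 passed higher and 368 lower. DESeq2 passed 3 members as lower with SRPIN340 (HSPA8, HSPA1B and HSPH1), and passed the summed pair at -0.28.

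With each replicate left out, members called higher in acidosis stayed at 5 and those passed as lower ranged from 1 to 3, also against SRPIN340. The summed pair ranged from 5.04 to 5.15 in acidosis. With SRPIN340, members passed as lower ranged from 0 to 1, and all genes from 3 to 30 called higher, 8 to 36 called lower, 4 to 207 passed higher and 10 to 319 passed lower. Left-out replicates turned HSPA4 in acidosis (from -0.06 without control replicate 1 to 0.04 without acidosis replicate 1, and 0.01 without control replicate 2) and HSPA2 with SRPIN340 (from -0.12 without SRPIN340 replicate 2 to 0.12 without SRPIN340 replicate 1, and -0.01 without control replicate 1). HSPA14 against SRPIN340 did not pass without SRPIN340 replicate 1, SRPIN340 replicate 2 or acidosis replicate 3 (adjusted p in edgeR 0.0776, 0.116 and 0.0629).

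The gain of the summed pair over HSPA8, HSPA9 and HSPA4 was 4.01, 6.09 and 5.56 with HSPA1A alone and 3.16, 5.24 and 4.71 with HSPA1B alone. The cause of these differences was not tested.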
